A study of Mus musculus with 12 samples.

Results

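Many of the PYHIN genes of mouse chromosome 1 encode proteins that pair a pyrin domain, which binds other pyrin domains, with a HIN domain, which binds DNA. Not every gene of the cluster encodes both domains. Aim2 and its neighbors were followed here in tumors grown from the mouse colorectal cancer line CT26 and in the cultured line itself. The members were chosen by name: Aim2, Ifi203, Ifi204, Ifi207, Ifi209, Ifi211, Mnda and Mndal. Of these 8 names, 7 had an identifier in both count tables, each of which lists 55335 identifiers. No identifier carried the name Mnda, which RefSeq gives as a synonym of Ifi211, so Ifi211 stands for both. Adding the other annotated genes of the cluster gave 14 genes in all, namely the 7 members with Ifi202b, Ifi205, Ifi206, Ifi208, Ifi213, Ifi214 and the pseudogene Ifi203-ps.

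The 12 libraries fall into 4 groups of 3. Midostaurin tumors were subcutaneous CT26 tumors that received midostaurin, an inhibitor of several kinases including FLT3, KIT and protein kinase C, at 40 mg/kg from day 7 after inoculation for 2 weeks. Vehicle tumors received the carrier only. Midostaurin cells were cultured CT26 cells exposed to 1 µM midostaurin for 48 h, and DMSO cells received the solvent. All samples are labelled wild type. CT26 comes from BALB/c mice, and the mm10 genome used by the submitters is that of C57BL/6. How strain differences in this cluster affected its counts was not tested.

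AIM2 binds double-stranded DNA in the cytosol and recruits the adaptor ASC, encoded by Pycard, and caspase-1. The assembled inflammasome cleaves gasdermin D and releases interleukin-1β and interleukin-18. Several mouse Ifi200 genes are known interferon-induced genes. Mouse p204, encoded by Ifi204, is often treated as the counterpart of human IFI16, a DNA sensor that signals through STING. Mouse p202, encoded by Ifi202b, has HIN domains but no pyrin domain and is known to restrain AIM2.

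Because interferon induction of such genes runs through the interferon-stimulated response element, the 250 bases before each RefSeq start site (build GRCm38.p6) were searched on both strands for its core, GAAANNGAAA. Of 13 cluster genes looked up, 12 matched the promoter table, with 14 start sites, and Ifi204 did not match. The core lay upstream of 10 of the 14 start sites and of 9 of the 12 genes. Over all 32851 start sites of the table, 2.98% had it. Another interferon motif, GAS (TTCNNNGAA), was searched in the same bases. It lay upstream of 1 of the 14 start sites, that of Ifi202b, against 7.02% of all start sites. The paralogous upstream regions share ancestry and are therefore not independent of each other. Aim2, Ifi209 and Ifi202b had no exact match to the core GAAANNGAAA in this window. A match is a description of letters and says nothing of use. The 30 bases around the core are shown for 4 members and, for comparison, 3 other cluster genes, on the strand of each gene with the core in capitals:
Ifi203, chr1:173942508-173942537, minus strand: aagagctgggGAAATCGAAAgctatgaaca
Mndal, chr1:173880204-173880233, minus strand: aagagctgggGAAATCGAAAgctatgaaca
Ifi207, chr1:173741831-173741860, minus strand: cctagccaggGAAATCGAAAattaagaaca
Ifi211, chr1:173913064-173913093, minus strand: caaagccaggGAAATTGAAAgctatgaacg
Ifi205, chr1:174031870-174031899, minus strand: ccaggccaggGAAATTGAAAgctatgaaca
Ifi208, chr1:173673597-173673626, plus strand: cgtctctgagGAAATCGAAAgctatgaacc
Ifi213, chr1:173599326-173599355, minus strand: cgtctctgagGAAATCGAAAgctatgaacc

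The windows of Ifi203 and Mndal were identical letter for letter, as were those of Ifi208 and Ifi213. Ifi203 and Mndal have 2 start sites each, and the windows shown belong to start 1 of Ifi203 and start 2 of Mndal, numbered by position. Start 2 of Ifi203 had no exact core. Start 1 of Mndal had a different core on the opposite strand, 54 bases before it. The core began 35, 36, 41 and 37 bases before the start site in Ifi203, Mndal, Ifi207 and Ifi211, counted to its first base. The whole upstream stretch is shown for Aim2, which lacked an exact core, and for Ifi207 and Ifi211, which had one in capitals, since these 3 genes take different courses in the libraries below:
Aim2, chr1:173420354-173420603, plus strand: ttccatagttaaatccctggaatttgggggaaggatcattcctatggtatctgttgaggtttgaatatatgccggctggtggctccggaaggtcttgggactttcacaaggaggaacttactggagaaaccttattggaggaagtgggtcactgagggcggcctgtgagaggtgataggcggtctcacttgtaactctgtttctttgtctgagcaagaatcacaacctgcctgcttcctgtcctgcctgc
Ifi207, chr1:173741810-173742059, minus strand: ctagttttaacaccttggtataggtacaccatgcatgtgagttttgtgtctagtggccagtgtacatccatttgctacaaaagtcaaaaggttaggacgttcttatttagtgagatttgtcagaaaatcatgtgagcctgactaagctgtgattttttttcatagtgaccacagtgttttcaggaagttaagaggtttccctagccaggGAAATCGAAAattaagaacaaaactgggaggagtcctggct
Ifi211, chr1:173913047-173913296, minus strand: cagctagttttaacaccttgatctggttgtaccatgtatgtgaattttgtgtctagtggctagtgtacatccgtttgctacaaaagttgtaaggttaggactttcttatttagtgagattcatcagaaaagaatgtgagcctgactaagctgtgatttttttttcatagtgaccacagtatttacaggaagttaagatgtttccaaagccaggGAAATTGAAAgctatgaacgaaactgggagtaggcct

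All 7 members lie close together on chromosome 1 of mm10. In the GENCODE annotation of that build, Aim2 (ENSMUSG00000037860) spans 173350879 to 173466040 on the plus strand. Ifi209 (ENSMUSG00000043263) spans 173630917 to 173647928 on the plus strand. On the minus strand follow Ifi207 (ENSMUSG00000073490, 173723427 to 173741747), Ifi204 (ENSMUSG00000073489, 173747293 to 173766943) and Mndal (ENSMUSG00000090272, 173849126 to 173942491). Ifi211 (ENSMUSG00000026536, 173896345 to 173913046) lies inside the span of Mndal without sharing exon sequence. Ifi203 (ENSMUSG00000039997, 173920407 to 173942672) shares 37 exon bases with Mndal. Reads of such paralogs can be split among them by an estimate. Of all 50-base words in the transcripts of a gene, the share also found in another gene was 0.628% for Aim2, 7.29% for Ifi207, 12.2% for Ifi203, 19.6% for Mndal and 20% for Ifi204. It reached 33.7% for Ifi209, nearly all of it shared with Ifi214, and 72.8% for Ifi211, of which the largest part was shared with Ifi205. Aim2 is thus the member least exposed to shared reads, and the values of Ifi211 and Ifi209 are the least certain.

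Total counts were 33399701 to 48109497 per tumor library and 34787389 to 38144039 per cell library, and all 7 members passed the filter on low counts in every fit. Levels are TMM-scaled CPM (counts relative to the scaled library total), computed here from the deposited counts. Markers of T and NK cells summed to 74.7 to 137 CPM in midostaurin tumors and 85.3 to 110 CPM in vehicle tumors, against 0 CPM in midostaurin cells and 0 to 0.0854 CPM in DMSO cells. The label colorectal cancer was checked with epithelial genes in the cells: Krt18, a keratin, was at 26.0 ± 3.46 CPM in midostaurin cells and 25.8 ± 1.58 CPM in DMSO cells (SD, n = 3 each), while Krt8 averaged below 1 CPM in both cell groups and Epcam was at 0 in all 6 libraries. The cell libraries numbered 1 stood apart from those numbered 2 and 3 under both treatments, and the calls of members that rest on the cells are given with and without them.

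Aim2 ranked in the middle of its family in tumors and near the top in culture. Per kilobase of exon, Aim2 was at 16.5 ± 5.23 CPM per kb in midostaurin tumors and 9.86 ± 2.11 in vehicle tumors, against 17.3 ± 2.36 in midostaurin cells and 16.5 ± 3.20 in DMSO cells (SD, n = 3 each). That placed it in rank 7 of the 14 cluster genes in both tumor groups and in rank 2 in both cell groups. Ifi202b came first in all 4 groups, at 98.0 ± 7.15 and 80.0 ± 4.45 CPM per kb in midostaurin and vehicle tumors, against 24.0 ± 7.47 and 22.2 ± 4.89 in midostaurin and DMSO cells. In tumors Ifi204, Ifi203, Mndal, Ifi211 and Ifi207 followed it in that order. Of these, Ifi204 was at 41.6 ± 1.71 and Ifi207 at 25.7 ± 3.34 CPM per kb in midostaurin tumors, and the neighbors Ifi204, Ifi203 and Mndal overlapped in their ranges over libraries. With the longest transcript as length, Ifi203 stood above Ifi204 in both tumor groups. In DMSO cells Ifi204 had rank 3, at 7.90 ± 1.76 CPM per kb, and Ifi211, Mndal and Ifi203 lay between 5.47 and 5.81 CPM per kb, within their spread. In both cell groups Ifi207 had rank 7 and Ifi209, a member also named Pyhin1, rank 9.

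**Figure D1:**
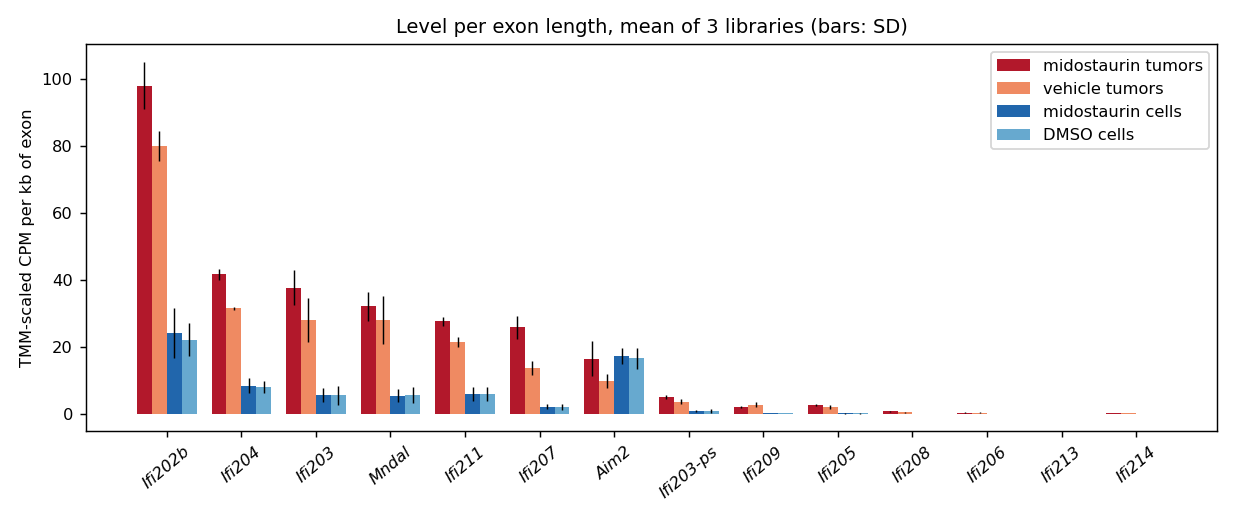
Level of the 14 PYHIN cluster genes as TMM-scaled CPM per kilobase of exon on the vertical axis, by gene, as the mean of 3 libraries with SD bars for midostaurin tumors, vehicle tumors, midostaurin cells and DMSO cells. Ifi202b was the tallest in every group, and Aim2 was the one well expressed gene whose cell bars reached or passed its tumor bars.

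Counted as reads, Aim2 made up 6.32% of the reads of the 14 genes in midostaurin tumors and 4.98% in vehicle tumors, against 30.0% in midostaurin cells and 29.8% in DMSO cells. Ifi205, Ifi206, Ifi208, Ifi213 and Ifi214 were close to 0 in culture. Ifi206 had 8 to 51 counts per tumor library, against 0 counts in all 6 cell libraries. Ifi205 was at 10.5 ± 1.14 CPM in midostaurin tumors and 8.05 ± 2.45 CPM in vehicle tumors (SD, n = 3 each), while in cells it had 0 counts in both libraries numbered 2 and 5 to 23 counts in the other 4. Ifi208 and Ifi214 had 41 to 191 counts per tumor library and Ifi213 had 0 to 11, against 0 to 4 counts of each per cell library.

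Midostaurin tumors were set against vehicle tumors to ask what the drug changed in tissue that holds cancer, immune and stromal cells. Levels of 4 members were higher in every midostaurin tumor than in any vehicle tumor, 1 was lower in every one, and 2 overlapped. None passed the threshold of an adjusted p of 0.05 in edgeR. In bulk tumor RNA, fewer cells of a type and less RNA per cell cannot be told apart.

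Ifi207 differed most by p. It was at 87.1, 100.0 and 77.2 CPM in midostaurin tumors 2, 3 and 4, and at 50.9, 38.1 and 49.7 CPM in vehicle tumors 1, 2 and 3. The groups did not overlap, and the gap between them was wider than the spread of the vehicle tumors. The log2 fold change was 0.93 ± 0.14 (SE), a fold of 1.91, with an edgeR adjusted p of 0.0841, rank 62 of 16094 genes by p.

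Ifi204 was the steadiest member. It was at 151.3, 141 and 152 CPM in midostaurin tumors and at 110.5, 113 and 113 CPM in vehicle tumors. The groups lay apart with little spread inside either, and the log2 fold change was 0.41 ± 0.07 (SE; edgeR adjusted p = 0.0841). Ifi211 was at 46.6, 49.9 and 51.2 CPM in midostaurin tumors and at 35.6, 41.1 and 38.3 CPM in vehicle tumors. Again the groups lay apart, with a log2 fold change of 0.37 ± 0.09 (SE; edgeR adjusted p = 0.109).

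Ifi203 was at 243, 223 and 292 CPM in midostaurin tumors and at 137, 213 and 213 CPM in vehicle tumors. The groups lay apart by a narrow margin, and vehicle tumor 1 was low. The log2 fold change was 0.43 ± 0.2 (SE; edgeR adjusted p = 0.281). Without vehicle tumor 1 it was 0.26, and with the replicate block over the 2 shared numbers, which leaves out that tumor and midostaurin tumor 4, it was 0.13. Mndal, which shares the window before 1 of its start sites with Ifi203, was at 109, 106 and 134 CPM in midostaurin tumors and at 71.7, 118 and 115 CPM in vehicle tumors. Its groups overlapped, vehicle tumor 1 was again the low one, and the log2 fold change of 0.20 ± 0.2 had an edgeR adjusted p of 0.625. Without vehicle tumor 1 it was 0.01.

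Aim2 was at 39.9, 76.5 and 56.4 CPM in midostaurin tumors and at 26.1, 37.4 and 40.0 CPM in vehicle tumors. Midostaurin tumor 2 fell just under the highest vehicle tumor, so the groups overlapped. The mean was 57.6 ± 18.3 CPM in midostaurin tumors and 34.5 ± 7.40 CPM in vehicle tumors (SD, n = 3 each), and the log2 fold change was 0.74 ± 0.26 (SE; edgeR adjusted p = 0.188). Over the fits that left out 1 tumor each it lay between 0.49 and 0.94, lowest without midostaurin tumor 3.

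Ifi209 went the other way. It was at 7.78, 5.96 and 8.05 CPM in midostaurin tumors and at 12.2, 8.50 and 8.21 CPM in vehicle tumors, without overlap but by a small margin. The log2 fold change was -0.40 ± 0.21 (SE; edgeR adjusted p = 0.345) and -0.19 without vehicle tumor 1, the highest of the 6. Ifi202b, the inhibitor of AIM2, had a log2 fold change of 0.30 ± 0.09 (edgeR adjusted p = 0.146).

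Set against all genes, 0 of 7 members were called with edgeR, where the background was 0.0435% of 16094 genes. At an unadjusted p below 0.05, 4 of 7 members passed, against 19.9% of all genes. The 4 members without overlap and higher compare with 13.2% of all genes, and the 5 without overlap in either direction with 27.2%. The median log2 fold change was 0.41 over the 7 members and -0.01 over all genes. The choice of test decided the call: DESeq2, which called 1447 genes (8.99%), called Ifi207 (adjusted p = 1.18e-06), Ifi204 (9.03e-05), Ifi211 (0.0118) and Aim2 (0.0375).

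When the counts of the 14 cluster genes were added into 1 feature, so that reads shared among them no longer mattered, the sum was 883, 882 and 978.5 CPM in midostaurin tumors and 598, 737 and 730 CPM in vehicle tumors. The groups lay apart, with a log2 fold change of 0.42 ± 0.11 (SE; edgeR adjusted p = 0.125; DESeq2 adjusted p = 0.00885). Beside this, the summed level of 16 macrophage and monocyte markers was 724, 1792 and 1325 CPM in midostaurin tumors and 2292, 1611 and 2668 CPM in vehicle tumors, with 14 of the 16 below 0 on the log2 scale and none called. The 5 markers of all leukocytes summed to 172 to 339 CPM in midostaurin tumors and 303 to 411 CPM in vehicle tumors. Neutrophil markers summed to 687 CPM in midostaurin tumor 3, where Aim2 and Ifi207 were highest, against 15.2 to 38.7 CPM in the other 5 tumors. The 5 fibroblast markers summed to 373, 723 and 1024 CPM in midostaurin tumors and to 2357, 531 and 349 CPM in vehicle tumors. They were highest in vehicle tumor 1, the tumor with the lowest Ifi203 and Mndal and the highest Ifi209. The part of these cell types in the PYHIN values was not tested.

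**Figure D2:**
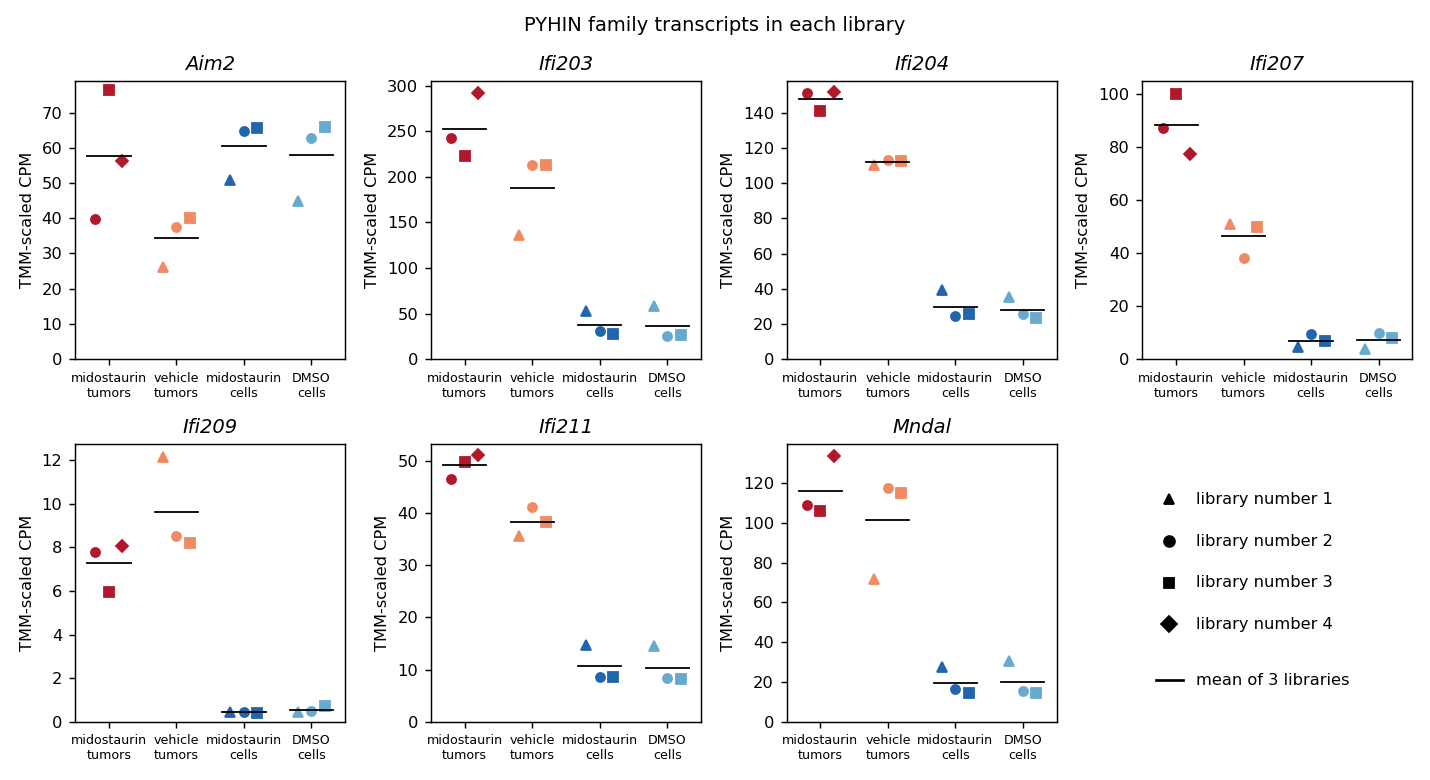
TMM-scaled CPM (vertical axes) of the 7 PYHIN members in each of the 12 libraries, by group along the horizontal axes, with the library number as the marker shape and the mean of 3 libraries as a line. Midostaurin tumors lay above vehicle tumors without overlap for Ifi203, Ifi204, Ifi207 and Ifi211, and cell libraries numbered 1 lay apart from numbers 2 and 3 for every member but Ifi209.

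Of 15 genes of the AIM2 inflammasome and its relatives, 0 were called in the same comparison with edgeR and 9 lay above 0. In 10 of them the unadjusted p was below 0.05, against 19.9% of all genes. Gsdmd, which encodes the pore former gasdermin D, was at 71.9 ± 19.9 CPM in midostaurin tumors and 34.4 ± 1.26 CPM in vehicle tumors (SD, n = 3 each), a log2 fold change of 1.07 ± 0.2 (SE; edgeR adjusted p = 0.0848). Casp1 was at 80.3 ± 8.18 and 64.9 ± 4.74 CPM in midostaurin and vehicle tumors, with 0.31 ± 0.1 (edgeR adjusted p = 0.157). Pycard, the adaptor, leaned the other way, at 3.38 ± 1.20 CPM in midostaurin tumors and 7.14 ± 2.32 CPM in vehicle tumors, with -1.07 ± 0.35 (edgeR adjusted p = 0.169). Nlrp1b, also an inflammasome sensor, had -0.70 ± 0.22 (edgeR adjusted p = 0.154). The median over the 15 was 0.76, against 0.24 without midostaurin tumor 3 and 0.36 without midostaurin tumor 2. With 1 tumor left out, between 4 and 10 of the 15 had an unadjusted p below 0.05, against 14.3% to 17.4% of all genes. Midostaurin tumor 3, the one with neutrophil markers at 687 CPM, carried much of the level of several of these genes. Il1b, which encodes interleukin-1β, was at 26.6, 403 and 12.5 CPM in midostaurin tumors 2, 3 and 4 and at 13.6, 6.04 and 6.75 CPM in vehicle tumors 1, 2 and 3. Nlrp3, another inflammasome sensor, was at 6.71, 53.8 and 7.29 CPM in midostaurin tumors and at 10.3, 7.42 and 8.49 CPM in vehicle tumors. Il1a, Mefv and Casp4 were likewise highest in that tumor, at 19.7, 20.2 and 65.9 CPM. Gsdmd, Gsdme and Zbp1 were instead highest in midostaurin tumor 2, at 90.35, 36.04 and 159 CPM. The part of neutrophils in these values was not tested.

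Of 18 tested cytosolic DNA sensing genes, 0 were called with edgeR, and the median log2 fold change was -0.06. Their unadjusted p fell below 0.05 in 2 genes, against 19.9% of all genes. The smallest p was that of Rnaseh2a, a subunit of the enzyme that removes ribonucleotides from DNA, at 44.4 ± 2.63 CPM in midostaurin tumors and 59.4 ± 2.19 CPM in vehicle tumors (SD, n = 3 each), with -0.41 ± 0.08 (edgeR adjusted p = 0.0869). Cgas, the other main cytosolic DNA sensor, was at 20.5 ± 3.49 CPM in midostaurin tumors and 25.4 ± 0.329 CPM in vehicle tumors, with -0.30 ± 0.14 (edgeR adjusted p = 0.292). Of 31 interferon response genes, 0 were called with edgeR, while the unadjusted p of 12 was below 0.05, against 19.9% of all genes. Of these 31, 29 lay above 0, with a median of 0.42, beside 0.41 over the PYHIN members. With 1 tumor left out, the median of these interferon genes ran between 0.2 and 0.61. The number with an unadjusted p below 0.05 ran between 6 and 22, against 14.3% to 17.4% of all genes. Both were highest without midostaurin tumor 3. The smallest p-values of the interferon genes belonged to Gbp5 (log2 fold change 1.29 ± 0.25, edgeR adjusted p = 0.085) and Irf1 (1.14 ± 0.23, edgeR adjusted p = 0.0907), both known targets of interferon-γ.

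In culture, the members measured nearly the same with midostaurin as with DMSO. The edgeR log2 fold changes of 6 members lay between -0.04 and 0.08, and that of Ifi209, which was at 0.439 ± 0.0250 CPM in midostaurin cells and 0.544 ± 0.149 CPM in DMSO cells (SD, n = 3 each), was -0.30 ± 0.32 (SE). Aim2 was at 51.0, 64.7 and 65.7 CPM in midostaurin cells 1, 2 and 3 and at 45.0, 62.7 and 65.9 CPM in DMSO cells 1, 2 and 3. Each value lay next to that of its own number, and the log2 fold change was 0.06 ± 0.18 (SE; edgeR adjusted p = 1). Of 7 members 0 were called, where 0 of 14538 genes were called (0%), 75 genes (0.516%) had an unadjusted p below 0.05, and none of the members did. That is far fewer genes than a threshold of 0.05 would pass with no difference at all. This fit leaves the differences between library numbers inside each group and could call little, so its 0 calls do not show an absence of change. DESeq2 and limma-voom called 2 genes each and no member.

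Same-numbered cell libraries deviated together, and with the replicate number as a block edgeR called 8 genes in cells and no member. For Aim2 the blocked log2 fold change was 0.07 ± 0.04 (SE). Without both libraries numbered 1, the fit called 1 gene and no member. None of the inflammasome, DNA sensing and interferon genes tested in cells (9, 18 and 28 genes) was called either, with a smallest edgeR adjusted p of 1. Whether tumors responded otherwise than cells was tested by an interaction term, which called 0 of 7 members with edgeR, against 0.00589% of 16965 genes. Without the replicate block, 6.08% of all genes and none of the members had an unadjusted p below 0.05. Ifi207 came first among the members, with 0.97 ± 0.47 (SE; edgeR adjusted p = 0.832), followed by Aim2, with 0.67 ± 0.35 (SE; edgeR adjusted p = 0.845). With the replicate block in cells the term called 16 genes and no member, while 3 of 7 members had an unadjusted p below 0.05, against 14.7% of all genes. Ifi207 then had 0.93 ± 0.2 (SE; edgeR adjusted p = 0.107), Ifi204 0.33 ± 0.09 (0.15) and Ifi211 0.32 ± 0.11 (0.227), and Aim2 had 0.66 ± 0.32 (0.38). In neither fit was a different response in tumors called for any member.

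Vehicle tumors were then set against DMSO cells, which asks how the family stands in a tumor without the drug relative to the cultured line. Here 6 members were higher in tumors and Aim2 was lower. With edgeR all 7 were called, against 44.2% of 16965 genes, 24.5% higher and 19.7% lower. The cultures and tumors were deposited as separate tables, so any difference in how their libraries were made or sequenced cannot be told apart from the difference between tumor and culture.

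Ifi209 had the largest change of the members. It was at 12.2, 8.50 and 8.21 CPM in vehicle tumors and at 0.430, 0.489 and 0.712 CPM in DMSO cells, a 17.7-fold difference (log2 4.14 ± 0.26 SE; edgeR adjusted p = 4.66e-06) with rank 44 among all genes by p. Of its transcript words, 33.4% also occur in Ifi214, which had 1.40 to 2.16 CPM in vehicle tumors and at most 0.0759 CPM in DMSO cells. Ifi207 was at 46.2 ± 7.12 CPM in vehicle tumors and 7.11 ± 3.11 CPM in DMSO cells (SD, n = 3 each), with 2.70 ± 0.35 (edgeR adjusted p = 0.000211). Ifi203, with 188 ± 44.2 and 36.7 ± 18.6 CPM in vehicle tumors and DMSO cells, differed by 2.36 ± 0.36 (edgeR adjusted p = 0.000511). Mndal differed by 2.34 ± 0.34 (edgeR adjusted p = 0.000371), Ifi204 by 2.00 ± 0.19 (3.82e-05) and Ifi211 by 1.89 ± 0.26 (0.000285). Outside the members, Ifi202b was higher by 1.85 ± 0.21 (edgeR adjusted p = 9.84e-05), and of 13 cluster genes tested 12 were called higher and 1 lower.

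Aim2 was at 26.1, 37.4 and 40.0 CPM in vehicle tumors and at 45.0, 62.7 and 65.9 CPM in DMSO cells. All 3 tumors were below all 3 cultures, with a log2 fold change of -0.74 ± 0.25 (SE; edgeR adjusted p = 0.0322). The call was lost without DMSO cells 2 (adjusted p = 0.0906) or 3 (0.103), without vehicle tumor 1 (0.114) or 2 (0.0589), and with no low-count filter (0.0519), each in edgeR. Without both number 1 libraries of the cells it was -0.89 ± 0.25 (edgeR adjusted p = 0.0135). All 7 members were called in that fit too, against 31% of 17460 genes called higher and 22.3% called lower. The 6 higher members then had log2 fold changes between 2.20, for Ifi204, and 4.00, for Ifi209, and Ifi203 was at 2.87, Mndal at 2.77, Ifi207 at 2.39 and Ifi211 at 2.22, with edgeR adjusted p-values of 2.58e-05 or less.

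In the midostaurin groups, 6 members were again higher in tumors, against 43.3% of 16965 genes called and 24.2% called higher. Their log2 fold changes of midostaurin tumors over midostaurin cells were 4.04 for Ifi209, 3.67 for Ifi207, 2.76 for Ifi203, 2.57 for Mndal, 2.31 for Ifi204 and 2.21 for Ifi211, with edgeR adjusted p-values of 0.000219 or less. Aim2 was not called, at 57.6 ± 18.3 CPM in midostaurin tumors and 60.5 ± 8.26 CPM in midostaurin cells (SD, n = 3 each), with -0.07 ± 0.25 (SE; edgeR adjusted p = 0.838). Without both number 1 libraries the same 6 members were called higher, with log2 fold changes between 2.54, for Ifi211, and 4.05, for Ifi209, and Aim2 was at -0.17 ± 0.25 (SE; edgeR adjusted p = 0.589). That Aim2 was called in one pair of groups and not in the other is the same contrast as the interaction above, which was not called.

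**Figure D3:**
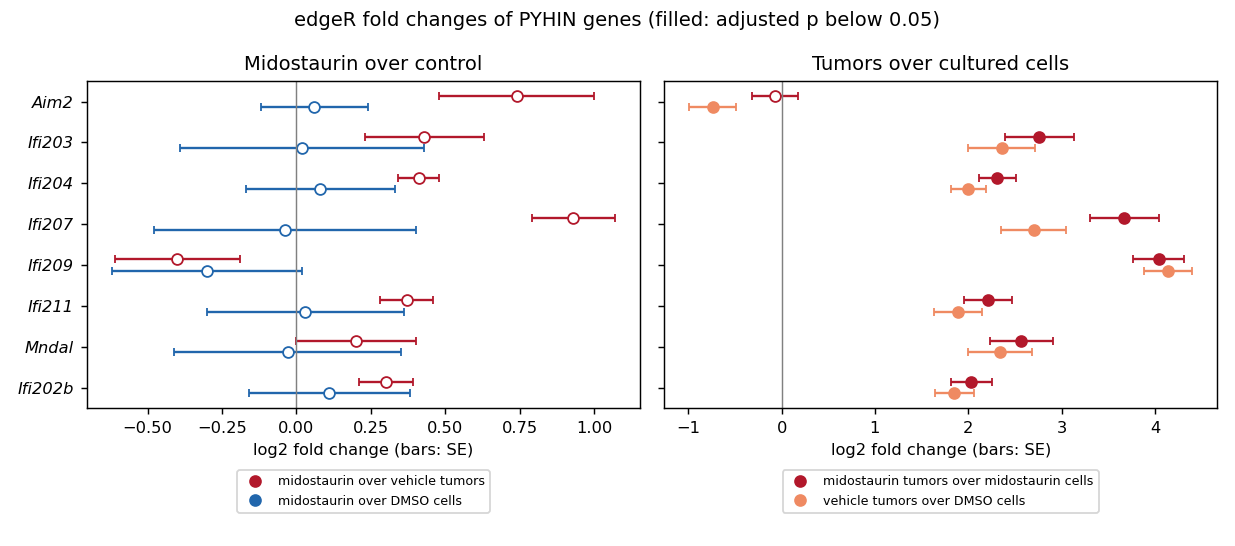
edgeR log2 fold changes (horizontal axis) with SE bars of the 7 members and Ifi202b, for midostaurin over control in tumors and in cells (left) and for tumors over cultured cells with midostaurin and without it (right), filled where the adjusted p was below 0.05. On the left no gene was called. On the right every gene but Aim2 lay near or above 2, and Aim2 was at -0.07 and -0.74.

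Pycard and Il1b, partners of AIM2 in the inflammasome, were nearly absent from the cultured line, while Casp1 and Gsdmd were present. Pycard was at 0.0528 ± 0.0517 CPM in midostaurin cells and 0.0987 ± 0.0624 CPM in DMSO cells (SD, n = 3 each), and Il1b had 0 counts in all 6 cell libraries. Casp1 was at 90.7 ± 62.7 and 92.1 ± 63.9 CPM in midostaurin and DMSO cells, and Gsdmd at 15.9 ± 1.85 and 17.5 ± 1.03 CPM. Of the 15 inflammasome genes, 9 were called higher in vehicle tumors than in DMSO cells with edgeR and 0 lower, among them Zbp1, a sensor of Z-form nucleic acids (log2 fold change 5.93 ± 0.55), Pycard (6.13 ± 0.66), Casp8 (1.04 ± 0.1) and Nlrp1b (2.91 ± 0.34). Of 18 DNA sensing genes 4 were called higher and 4 lower, the lower ones including Prkdc, the catalytic subunit of DNA-dependent protein kinase (-1.52 ± 0.11), and Dnase2a, a lysosomal DNase (-1.62 ± 0.23). Of 31 interferon response genes 10 were called higher and 0 lower. Beside these counts stand 24.5% of all genes called higher and 19.7% called lower, and the counts of the DNA sensing genes and the higher calls of the interferon genes were near that. The number 1 libraries decided the interferon count: without both of them 28 of the 31 were called higher and 0 lower, against 31% and 22.3% of all genes. In that fit 9 of the 18 DNA sensing genes were called higher and 4 lower, and 8 of the 15 inflammasome genes higher and 1 lower. Macrophage and monocyte markers summed to 1611 to 2668 CPM in vehicle tumors and 26.8 to 167 CPM in DMSO cells, the same way as the 6 higher members. In the fit of all 12 libraries 15 of 16 were called higher with edgeR, against 24.5% of all genes. Called higher too were 11 of 11 T and NK, 5 of 5 dendritic, 4 of 5 all-leukocyte and 4 of 4 endothelial markers. Fewer were called higher among neutrophil (3 of 5), B cell (2 of 3), fibroblast (2 of 5) and epithelial (2 of 4, with 1 lower) markers. The part of any of these cell types in the members was not tested.

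Within the cell table, both libraries numbered 1 differed from the 4 libraries numbered 2 or 3. This split was taken up with earlier results of these data known, and no statement says what the numbers share, so the values are given without a test. For 6 of 7 members the number 1 libraries did not overlap the others, against 65.1% of 14538 genes. A 2-fold difference without overlap was seen for 2 of 7 members, against 12% of genes, with Ifi203 higher (5.22% of genes) and Ifi207 lower (6.74%).

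The family did not move as one. Ifi203 was at 52.8 and 58.1 CPM in midostaurin and DMSO cells 1, against 25.8 to 30.9 CPM in the 4 libraries numbered 2 or 3. Mndal had a mean of 28.9 CPM in number 1 libraries and 15.3 in the others, a ratio of 1.89, and Ifi211 had 14.7 and 8.40 CPM, a ratio of 1.75. The ratio was 1.51 both for Ifi204, with 37.3 and 24.8 CPM, and for Ifi202b. These 5 genes were higher in number 1 libraries within each treatment.

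Aim2 and Ifi207 were lower there. Aim2 was at 51.0 and 45.0 CPM in midostaurin and DMSO cells 1, against 62.7 to 65.9 CPM in the other 4, a ratio of 0.741. Ifi207 was at 4.36 and 3.67 CPM, against 6.96 to 9.71 CPM, a ratio of 0.472. Ifi209, below 1 CPM in all cells, overlapped. The ratio of Ifi203 was 1.80 in midostaurin cells alone and 2.24 in DMSO cells alone, so its place past the 2-fold mark rests on the DMSO pair. Among midostaurin cells alone no member passed 2-fold. Across the 6 cell libraries Aim2 correlated with Ifi207 at r = 0.92 and with Ifi203 at -0.96 (log2 scale, n = 6). Ifi203 correlated with Mndal at 0.99. These values describe the same split, and the part of shared reads in them was not tested.

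**Figure D4:**
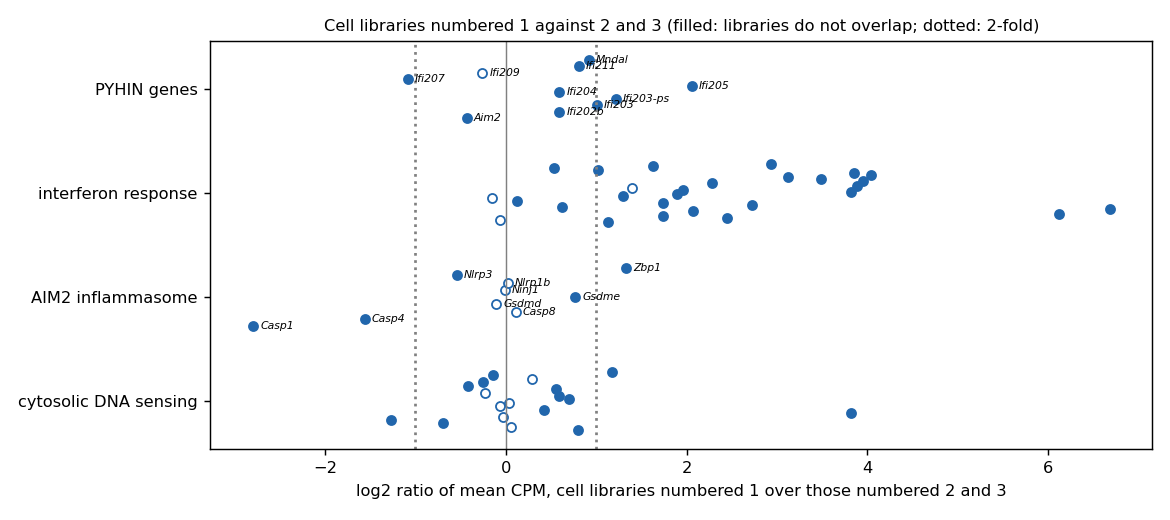
Log2 ratio of mean CPM in cell libraries numbered 1 over those numbered 2 and 3 (horizontal axis) for tested genes of 4 lists, filled where the libraries did not overlap, with dotted lines at 2-fold. Interferon response genes lay mostly right of the 2-fold line, the PYHIN genes lay on both sides of 0, and Casp1 and Casp4 lay at the far left.

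The interferon response genes set these libraries apart more than the PYHIN genes did. Of 28 tested, 22 were at least 2-fold higher without overlap in number 1 libraries and 0 lower, with a median log2 ratio of 1.93 against 0 over all genes. The median of the 7 members was 0.58. Named after their values were seen, Ifit1 had a ratio of 102, Oasl2 of 16.4 and Isg15 of 14.1. Of 9 inflammasome genes 1 was at least 2-fold higher, Zbp1 at 2.52, and 2 were lower, Casp1 at 0.144 and Casp4 at 0.339. The inflammatory caspases thus differed in the same direction as Aim2, by larger ratios. In the same libraries the macrophage and monocyte markers, of which 14 of 16 were below 1 CPM in the group means, summed to 28.4 and 26.8 CPM in midostaurin and DMSO cells 1, against 147 to 169 CPM in the other 4. The fibroblast markers summed to 299 and 282 CPM in midostaurin and DMSO cells 1, against 91.6 to 107 CPM in the other 4. They did not move together. Of 4 tested, Col1a1 and Col3a1 were higher in number 1 libraries (ratios 6.19 and 3.25). Dcn and Pdgfra were lower there (0.0318 and 0.454). The part of macrophages, monocytes or fibroblasts in the split was not tested.

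Genes with the pattern most like each member were ranked by the correlation of log2(CPM + 0.5) among genes with a mean of at least 5 CPM. Over all 12 libraries, which mostly measures the gap between tumors and cells, Aim2 was closest to Thoc2 (r = 0.957), Trps1 (0.948) and Usp9x (0.946). Ifi203 was closest to Kctd15 (0.992), as Mndal was to Anxa8 (0.991), and Ifi211 had Tap1, a peptide transporter of antigen presentation, among its top 3 (0.993). Within the 6 tumors Aim2 was closest to Fndc3b (0.996), and Ifi209 was closest to Pclaf, Fignl1 and Chek1 (0.994 to 0.995), genes of DNA replication and repair. Among the members themselves in tumors, Aim2 correlated at 0.60 to 0.86 with the other 5 and at -0.91 with Ifi209. With 6 libraries and 10361 candidate genes, such top values are a description only.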

How the data were processed

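The deposited values are whole-number read counts per gene, in 1 table for 6 cell libraries and 1 for 6 tumor libraries. Per the submitters' processing notes, the authors used FastQC 0.11.2, Bowtie2 2.3.4 and RSEM with mm10; the annotation and the strand setting of the counting are not given in the sources used here. RSEM estimates how reads of similar genes divide. Per the labels' protocols, libraries were poly(A)-selected and directional. The labels number the treated tumors 1 to 3 and the columns 2 to 4, so the column numbered 4 was taken for its group alone and paired with no other library.

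Counts were tested with edgeR 4.0.16 (R 4.3.3): filterByExpr, TMM, quasi-likelihood F-test, Benjamini-Hochberg adjustment over all genes tested and a threshold of 0.05. The treatment was fitted within the 6 libraries of each experiment, and tumors against cells and the interaction in 1 fit of all 12. DESeq2 1.42.0 and limma-voom (limma 3.58.1) were alternatives. On simulated counts of the tumor comparison, run over 15781 genes, edgeR recovered 93 of 100 genes changed by 2 on the log2 scale and 62 of 100 changed by 1, with 18 false calls. On those of the cell comparison, run over 14221 genes, it recovered 82 of 100 and 27 of 100, with 8 false calls. The changed genes were drawn only from those with a mean of at least 100 counts. The libraries were simulated as independent, without shared replicate numbers. Recovery of genes with fewer counts, such as Ifi209 in cells, was not simulated. CPM was scaled with TMM factors of all 12 libraries. Lengths came from GENCODE exons and start sites from RefSeq. Standard errors are those of the fitted log2 fold changes. The motifs and 50-base words were matched exactly. The sources do not say whether samples of a group came from separate animals or cultures, so the spread behind each p-value may be technical.

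The members and gene lists were chosen with earlier results of these data known. All members and cluster genes are named whatever their values. Of each list up to 4 genes with the smallest p are named, besides AIM2 partners that the text needs (Casp1, Pycard, Il1b, Gsdmd), Cgas, the genes of the split by number and Krt18, Krt8 and Epcam. Nlrp3, Il1a, Mefv, Casp4, Gsdme and Zbp1 were named for their levels in single midostaurin tumors, after these levels were seen. Same-numbered cell libraries correlated in their deviations from the group means at 0.9, 0.72 and 0.7, and differently numbered ones at -0.76 to 0.55, so the numbers were taken to pair the cells by the data alone. In tumors the 2 shared numbers gave 0.15 and -0.19.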

Additional observations from a re-analysis of the deposited data

How the results depend on the processing

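Calls depended on the test more than on scaling. In tumors, the 7 genes called between midostaurin and vehicle became 1447 with DESeq2, 16 with limma-voom and 0 with no low-count filter. They became 0 to 1 with 1 tumor left out. The replicate block over the 2 shared numbers gave 0. That block left out vehicle tumor 1 and midostaurin tumor 4. This leaves few libraries to estimate the spread, so its 0 does not test these calls. The members called between midostaurin and vehicle tumors, 0 with edgeR, were 4 with DESeq2, which also called the sum of the 14 genes (0.42). In cells, the count of 0 became 2 with DESeq2, 2 with limma-voom, 8 with the replicate block and 1 without both libraries numbered 1. That last setting was chosen after seeing the data. For the interaction, the count of 1 became 99 with DESeq2, 16 with the replicate block in cells, 0 without both libraries numbered 1, and 1 to 6 with 1 library left out. In cells and in the interaction the block changed no call of a member. The 2 members past 2-fold in the split by number were 1 with DESeq2 size factors and 0 in midostaurin cells alone. With the longest transcript as length, Aim2 was at 12.2 CPM per kb in vehicle tumors, 21.3 in midostaurin cells and 20.4 in DMSO cells, at unchanged ranks. DESeq2 size factors shifted the median of all genes by at most 0.03 on the log2 scale.

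Signs turned only among values that were not called. Ifi207 in cells was 0.01 with limma-voom. Mndal was -0.11 in tumors with the replicate block and 0.07 in cells without both libraries numbered 1, where the interaction of Ifi209 was 0.05. With 1 library left out, the log2 fold changes in cells ran between -0.09 and 0.17 for Aim2, -0.32 and 0.52 for Ifi203, -0.17 and 0.28 for Ifi204, -0.36 and 0.25 for Ifi207, -0.28 and 0.36 for Ifi211, -0.36 and 0.39 for Mndal, -0.16 and 0.29 for Ifi202b, and -0.1 and 0.19 for the sum. The interaction ran between -0.1 and 0.74 for Ifi203, -0.34 and 0.1 for Ifi209, 0 and 0.64 for Ifi211, -0.2 and 0.56 for Mndal, and 0 and 0.45 for Ifi202b. Aim2 in midostaurin tumors over midostaurin cells ran between -0.33 and 0.14. The causes were not tested. Counts of 0 to 4 per library limit what can be said of Ifi206, Ifi208, Ifi213 and Ifi214 in cells.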
